A study of Mus musculus with 18 samples.

Results

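Of 39 genes named for their part in DNA repair, 38 had a row in the table of liver mRNA levels, out of 14451 genes in all. They were taken by symbol and grouped by textbook role: 11 in nucleotide excision repair, 6 DNA glycosylases, 7 in the later steps of base excision and strand break repair, 5 in end joining, 3 in mismatch repair, 1 in direct reversal and 5 in break sensing. The remaining gene, the glycosylase Mutyh, was not analysed here. RNA was sequenced from 18 livers of wild-type (WT) male mice aged 8 to 9 weeks, kept under 12 h of light and 12 h of dark. Each liver came from a separate mouse, and 3 livers were sequenced at each of 6 zeitgeber times (ZT, hours after lights on): ZT1, ZT5, ZT9, ZT13, ZT17 and ZT21. No mouse carried a mutation or received an agent, so the 6 groups differed by label in the time of day alone. From the 5 mice kept per time point, the 3 with the best RNA had been chosen for sequencing. Whole liver was measured, so fewer cells of a type and less RNA per cell cannot be told apart.

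Cells remove damaged bases through separate routes. In base excision repair a glycosylase cuts out a single altered base, an endonuclease nicks the strand, and a polymerase and a ligase fill and seal the gap. Nucleotide excision repair takes out a short stretch around a bulky or ultraviolet lesion, mismatch repair corrects copying errors, and broken ends are sensed by the MRE11-RAD50-NBN complex and by the kinases ATM and ATR and can be rejoined directly by the Ku, DNA-PK and ligase IV machinery. The liver handles reactive metabolites and dietary compounds that damage DNA, its hepatocytes rarely divide, and nucleotide excision repair in mouse liver is known from other work to vary over the day with the XPA protein.

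Levels are given in the deposited unit, estimated reads per 1000000 of a scaled library size chosen by the authors. Total estimated reads ranged from 10268168 to 23242842 per liver, with a median of 12078875. All 38 genes were above the lowest possible value in every liver. The lowest level was that of Ung in the first liver at ZT1, which rested on 6.95 estimated reads, and 4 of the genes, Ung, Lig1, Pms2 and Nthl1, fell below 20 reads in at least 1 liver. The median level over livers ran from 1.95 for Ung to 189 for Ddb1. The time labels were checked on the clock genes: Arntl had 31.6 ± 1.88 (SD, n = 3) at ZT1 and 1.31 ± 0.295 at ZT9, and Dbp had 0.308 ± 0.148 at ZT1 and 110.6 ± 3.71 at ZT9. By 4 clock genes 17 of 18 livers lay nearest to their own time point. ZT5 replicate 3, which was also the most deeply sequenced liver, lay nearer to the mean of ZT9.

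A 24 h rhythm was called for 19 of the 38 repair genes (50%), against 35.3% of the 14449 genes tested (limma, cosine of 24 h, Benjamini-Hochberg adjusted p below 0.05 over all genes). The 14449 include genes of very low level. When only the 12480 genes with a mean of at least 1 were tested, 20 of the 38 (52.6%) were called, against 41.4%. The genes called were Ung, Neil1, Rad50, Atr, Ercc5, Lig1, Ddb1, Parp2, Prkdc, Tdg, Msh6, Xrcc4, Pms2, Atm, Ercc3, Parp1, Xpa, Xrcc1 and Apex1. Their fitted peak fell in the light phase for 13 (34.2% of the 38, against 18.2% of all genes) and in the dark phase for 6 (15.8%, against 17.1%). The swings were small for most of them. Amplitude, the height of the fitted cosine above its midline on the log2(value + 1) scale, had a median of 0.15 over the 38 genes and 0.16 over all genes. The mean at the highest time point was 1.15 to 4.23 times that at the lowest in the 19 genes called, with a median of 1.48, and 1.15 to 1.62 times in the 19 not called, with a median of 1.33.

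The count depended on the method. With the rank test JTK 6 of the 38 genes (15.8%) passed at an adjusted p (q) below 0.05, against 14.1% of all genes. MC, which combines JTK with a periodogram, passed 8 (21.1%, against 18.3%), and a non-linear cosine with a free period passed 6 (15.8%, against 11.2%). By those 3 methods the share among repair genes was thus close to the share among all genes. These methods were written anew and passed 2039, 2640 and 1621 of all genes, in the same order. The study reported more genes in these livers for JTK, for MC and for its own curve-fitting tool. A gene that failed here could thus have passed there. Neil1, Rad50, Atr, Ercc5 and Ddb1 passed all 4 methods, and Ung passed all but JTK. Without ZT5 replicate 3, 16 of the 38 (42.1%, against 32.6% of all genes) remained called by limma, with Xrcc1, Parp1 and Atm lost. Without ZT9 replicate 1, 13 (34.2%, against 33.7%) were called, and without ZT5 replicate 2 also 13 (34.2%, against 31.6%). The genes Ung, Neil1, Rad50, Atr, Ercc5, Lig1, Ddb1, Parp2 and Prkdc were called in every one of 18 fits with 1 liver removed and under every other scaling, filter, pseudocount, variance model and weighting tried in limma at the 0.05 threshold. At an adjusted p below 0.01 Parp2 and Prkdc were lost, and the 7 genes left were 18.4% of the 38, against 19.8% of all genes. Lig1, Parp2 and Prkdc passed none of JTK, MC and the non-linear cosine. The same held for Tdg, Msh6, Xrcc4, Pms2, Atm, Xpa, Xrcc1 and Apex1.

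**Figure D1:**
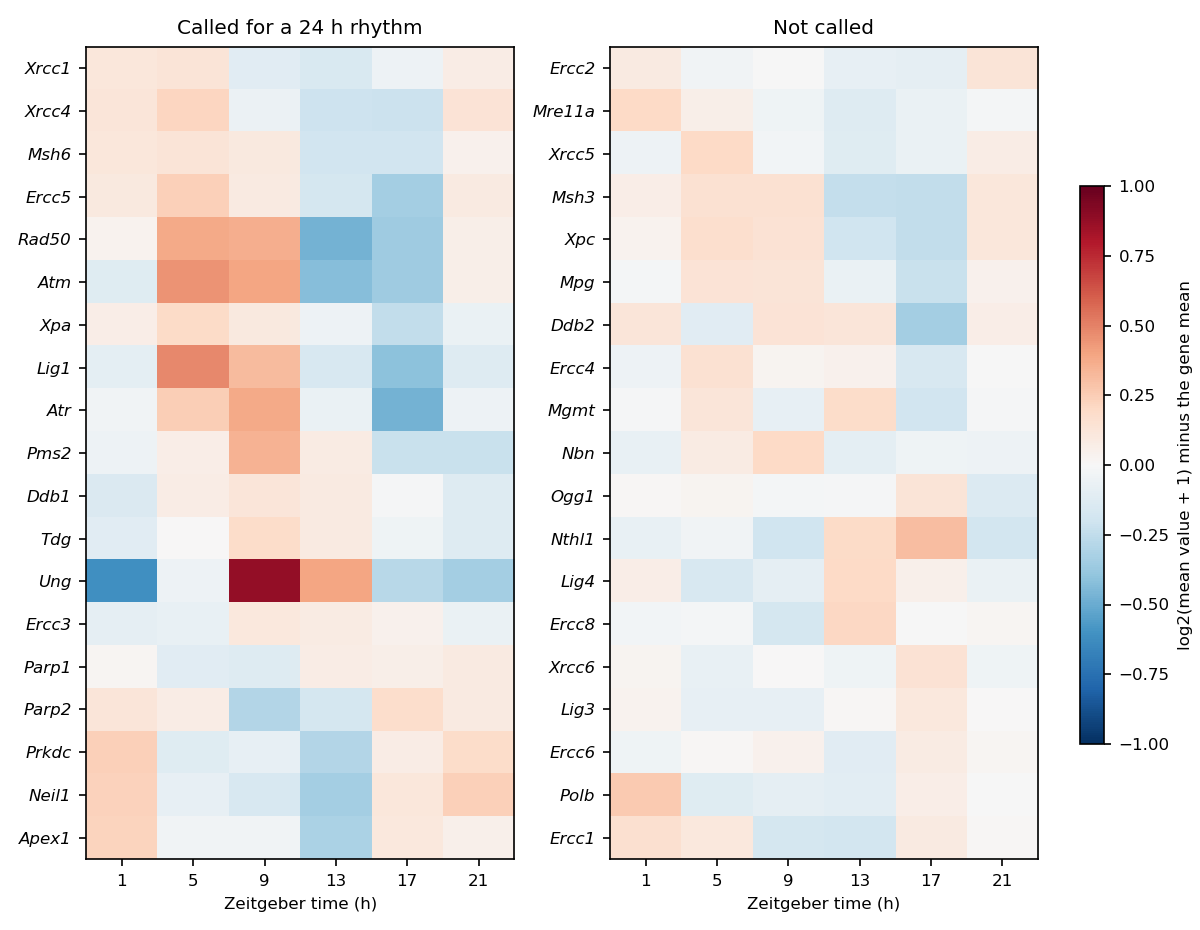
Heat map of log2(mean value + 1) at each time point for the 38 repair genes, as the difference from each gene's mean over the 6 time points, with the 19 genes called on the left, ordered by fitted peak, the 19 not called on the right and columns in order of ZT. Ung stands out at ZT9, and Rad50, Atr and Atm are high at ZT5 and ZT9 and low at ZT13 or ZT17.

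Promoter sequence was available from RefSeq (GRCm38.p6) for 31 of the 38 genes, as the 250 bases before the RefSeq gene start. The E-box CACGTG, the palindromic element that the CLOCK-BMAL1 heterodimer is known to bind, was searched there, and since it reads the same on both strands each match was counted once. It was found in 8 of the 31 windows (25.8%), against 6.86% of the 27025 genes with a promoter in the table and 9.69% of the 10326 tested genes with one. It stood in 4 of the 16 repair genes called rhythmic that had a promoter and in 4 of the 15 not called. Of all 3789 genes called rhythmic that had a promoter, 11.1% held it. The windows are shown because a known clock element was found both in genes with a called rhythm and in genes without one. The first 4 belong to genes called and the last 4 to genes not called, the coordinates are those of the letters shown on the + strand of GRCm38.p6, and capitals mark the E-box.
Parp1 (chr1:180568802-180568887): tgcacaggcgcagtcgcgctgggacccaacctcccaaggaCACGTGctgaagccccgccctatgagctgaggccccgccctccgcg
Tdg (chr10:82629770-82629837): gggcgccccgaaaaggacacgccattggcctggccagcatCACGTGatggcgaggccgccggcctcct
Parp2 (chr14:50807697-50807782): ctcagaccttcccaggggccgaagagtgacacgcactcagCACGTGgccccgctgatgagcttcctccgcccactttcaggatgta
Apex1 (chr14:50924885-50924948): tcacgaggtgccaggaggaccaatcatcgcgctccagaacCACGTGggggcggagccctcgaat
Lig3 (chr11:82781048-82781108): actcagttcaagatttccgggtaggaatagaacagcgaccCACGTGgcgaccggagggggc
Ercc8 (chr13:108158488-108158546): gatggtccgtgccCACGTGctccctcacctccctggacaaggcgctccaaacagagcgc
Ercc6 (chr14:32513385-32513470): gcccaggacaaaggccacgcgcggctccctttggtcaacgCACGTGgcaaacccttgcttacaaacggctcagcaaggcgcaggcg
Xrcc5 (chr1:72307183-72307268): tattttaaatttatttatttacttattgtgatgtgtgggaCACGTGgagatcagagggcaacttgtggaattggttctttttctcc

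The E-box began 49 bases before the RefSeq start of Parp1, 28 before that of Tdg, 179 before that of Parp2 and 24 before that of Apex1. It began 21 bases before the RefSeq start of Lig3, 237 before that of Ercc8, 96 before that of Ercc6 and 198 before that of Xrcc5. For some genes, such as Parp2, the RefSeq start differs from the start in the gene coordinates given here. Fitted peaks of the 4 called genes were spread over the day, at ZT10.1 for Tdg, ZT18.6 for Parp1, ZT22.1 for Parp2 and ZT23.7 for Apex1. The D-box TTANGTAA, searched on both strands, occurred in 0 of the 31 windows, in 2.44% of all promoters and in 1.79% of those of tested genes. The hexamer AGGTCA, the core of the elements that REV-ERB and ROR receptors bind, was searched on either strand. It was found in 2 of the 31 windows (6.45%), those of Atr and Pms2. It occurred in 15.8% of all promoters and in 13.7% of those of tested genes. A match is a description of the letters in the window and not evidence of binding.

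Among the glycosylases, Ung had the widest swing of all 38 genes. Ung (chr5:114130386-114139323, + strand, GRCm38) encodes uracil-DNA glycosylase, which removes uracil from DNA. Its levels were 0.516, 1.71 and 1.58 at ZT1, 3.61, 1.79 and 1.65 at ZT5, 4.64, 5.38 and 6.04 at ZT9, 4.71, 3.12 and 2.82 at ZT13, 2.16, 1.69 and 1.73 at ZT17, and 1.98, 1.30 and 1.92 at ZT21. The 3 livers at ZT9 were above every liver at ZT1, ZT5, ZT17 and ZT21 and overlapped those of ZT13 alone. The mean rose from 1.27 ± 0.653 (SD, n = 3) at ZT1 to 5.35 ± 0.703 at ZT9, a ratio of 4.23. The amplitude was 0.66 ± 0.11 (SE) with a peak at ZT10.5, and the adjusted p was 0.000665. The lowest level was that of ZT1 replicate 1, and without this liver the gene stayed called.

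Tdg, thymine-DNA glycosylase (chr10:82629828-82650799, + strand), which acts on mispaired thymine and on oxidised forms of methylcytosine, had a fitted peak at nearly the same time as Ung but a much smaller swing. The livers had 20.2, 18.1 and 15.6 at ZT1, 18.6, 19.2 and 20.9 at ZT5, 23.6, 20.5 and 22.6 at ZT9, 20.5, 20.9 and 20.9 at ZT13, 17.8, 18.03 and 21.0 at ZT17, and 18.8, 16.1 and 18.4 at ZT21. All 3 livers at ZT9 lay above all livers at ZT1 and ZT21. The amplitude was 0.15 ± 0.04, peaking at ZT10.1 (adjusted p = 0.02). Without ZT9 replicate 1 the adjusted p was 0.0502.

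Neil1 (chr9:57142800-57148305, - strand), whose product removes oxidised pyrimidines, ran opposite to Ung and Tdg, with a peak at ZT22.6. Levels stood at 5.31, 6.75 and 6.37 at ZT1, 4.70, 4.71 and 4.88 at ZT5, 3.95, 4.33 and 5.07 at ZT9, 4.41, 3.46 and 3.54 at ZT13, 6.14, 4.85 and 5.73 at ZT17, and 6.43, 6.42 and 5.62 at ZT21. The livers at ZT1 and ZT21 were above all livers at ZT9 and ZT13, without overlap. The fitted peak-to-trough fold of the value plus 1 was 1.48, and the highest mean level was 1.62 times the lowest. The amplitude was 0.28 ± 0.05 and the adjusted p was 0.000955. The remaining glycosylases were not called: Nthl1, which also removes oxidised pyrimidines (adjusted p = 0.21), Mpg, which removes alkylated purines (0.307), and Ogg1, which removes 8-oxoguanine (0.887). Ogg1 varied least among them, with an amplitude of 0.04 ± 0.07, and its means lay between 2.88 ± 0.765 at ZT21 and 3.66 ± 0.430 at ZT17.

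**Figure D2:**
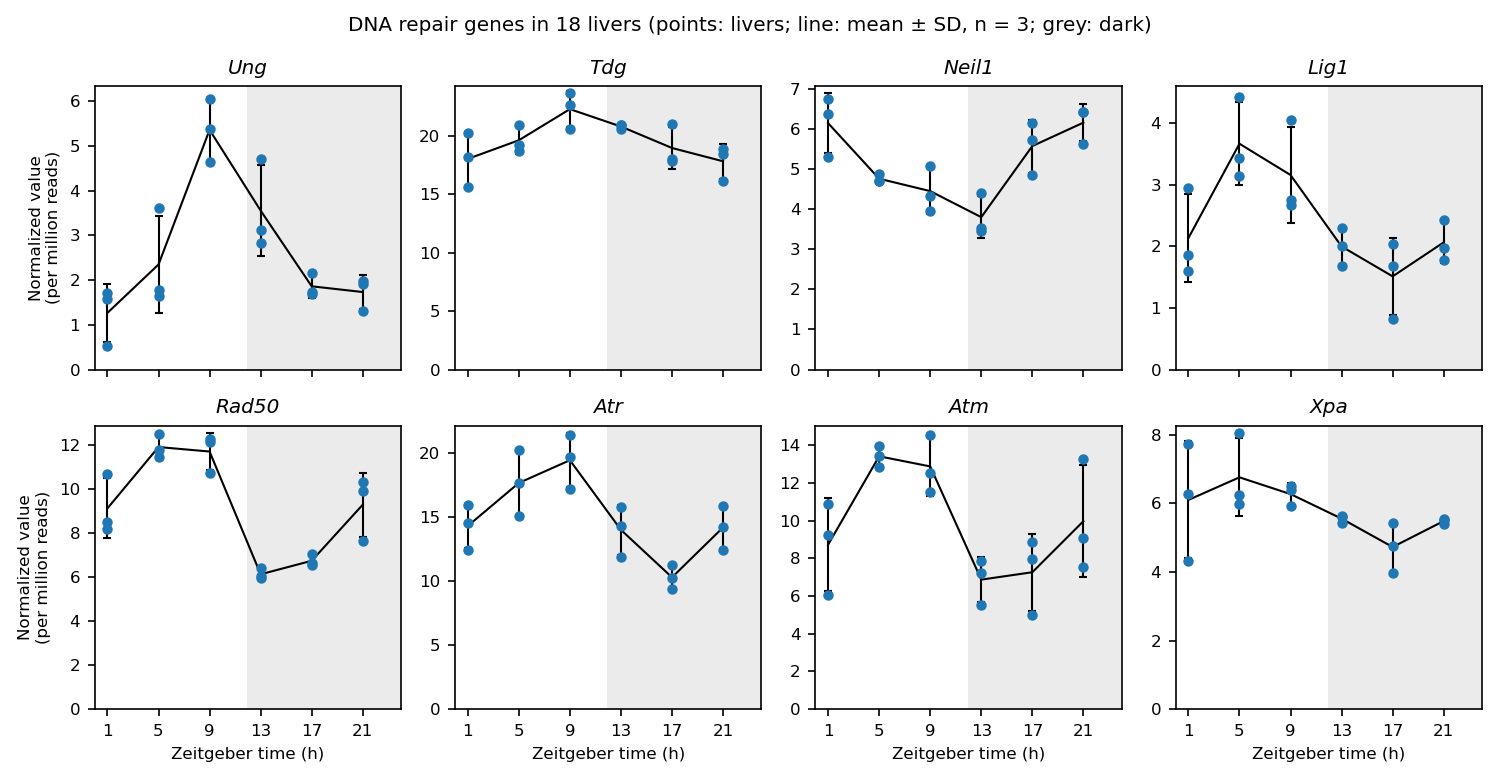
Levels of 8 repair genes in each liver (points, estimated reads per 1000000 of a scaled library size) by zeitgeber time in hours, with lines through the mean of the 3 livers, bars of 1 SD and the dark phase in grey. Ung and Tdg peak at ZT9 while Neil1 is lowest at ZT13, and Rad50 drops between ZT9 and ZT13.

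Of the 7 genes that act after the glycosylase or at single-strand breaks, 5 were called (71.4%, against 35.3% of all genes). By the other methods fewer of the 7 passed: 0 with JTK, 1 with MC and 0 with the non-linear cosine. Lig1, DNA ligase I (chr7:13277283-13311433, + strand), which seals nicks in replication and long-patch repair, had 2.94, 1.59 and 1.86 at ZT1, 4.42, 3.13 and 3.43 at ZT5, 4.04, 2.75 and 2.67 at ZT9, 2.01, 1.68 and 2.30 at ZT13, 1.68, 0.822 and 2.03 at ZT17, and 1.98, 1.78 and 2.43 at ZT21. The livers at ZT5 were above all those at ZT1, ZT13, ZT17 and ZT21, whereas those at ZT9 overlapped ZT1. The amplitude was 0.40 ± 0.08 with a peak at ZT6.07 (adjusted p = 0.00405). The fitted peak-to-trough fold of the value plus 1 was 1.74, and the highest mean level was 2.42 times the lowest.

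Parp2 (chr14:50807841-50821301, + strand), a poly(ADP-ribose) polymerase that responds to strand breaks, had 7.09, 6.05 and 7.60 at ZT1, 6.85, 5.96 and 7.09 at ZT5, 4.72, 4.71 and 5.39 at ZT9, 5.78, 4.82 and 5.69 at ZT13, 7.58, 7.40 and 6.62 at ZT17, and 5.93, 7.58 and 6.69 at ZT21. Its 3 livers at ZT9 were below all livers at ZT1, ZT5, ZT17 and ZT21. The amplitude was 0.20 ± 0.05 with a peak at ZT22.1 (adjusted p = 0.0166). Parp1, the more abundant of these polymerases, was lowest at ZT9 (37.2 ± 0.993) and highest at ZT21 (43.3 ± 2.44), with an amplitude of 0.11 ± 0.03 and an adjusted p of 0.0359, a call that was lost in 10 of 18 fits with 1 liver removed and with plain library totals.

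Apex1, the main endonuclease at abasic sites, had 28.3 ± 2.37 at ZT1 and 19.1 ± 1.43 at ZT13, and Xrcc1, the scaffold of single-strand break repair, peaked at ZT0.961. Both calls were marginal, at adjusted p = 0.0492 for Apex1 and 0.0481 for Xrcc1, and were lost in 13 and 14 of the 18 fits. Polb, the gap-filling polymerase (adjusted p = 0.113), and Lig3, the ligase that partners XRCC1 (adjusted p = 0.376), were not called. Apex1 shares 877 of its 1422 exon bases with Pip4p1, Lig3 shares 1826 of 7284 with Rffl, Mpg 1340 of 3752 with Nprl3 and Ddb2 652 of 2736 with Acp2. These partners run on the opposite strand, and since the libraries did not mark strand the reads of both genes cannot be told apart over the shared bases.

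Break sensing held some of the clearest rhythms outside the glycosylases. Rad50 (chr11:53649519-53707319, - strand), the coiled-coil subunit of the MRE11-RAD50-NBN complex, had 10.7, 8.50 and 8.17 at ZT1, 11.5, 12.5 and 11.8 at ZT5, 12.1, 12.3 and 10.7 at ZT9, 5.94, 6.40 and 6.04 at ZT13, 6.55, 7.05 and 6.62 at ZT17, and 7.63, 10.3 and 9.92 at ZT21. The 6 livers at ZT13 and ZT17 were the 6 lowest of the 18. The mean was 11.9 ± 0.528 at ZT5 and 6.13 ± 0.241 at ZT13, a ratio of 1.94. The amplitude was 0.38 ± 0.07 with a peak at ZT4.46 (adjusted p = 0.00164). Its partners were not called: Mre11a, the nuclease, had an adjusted p of 0.159 with means from 5.91 ± 1.67 to 7.68 ± 1.29, and Nbn, which links the complex to ATM, had 0.202 with means from 15.6 ± 1.93 to 19.4 ± 1.98. Whether the 3 subunits differ from each other was not tested.

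Atr (chr9:95857597-95951781, + strand), the kinase that answers stretches of single-stranded DNA and stalled forks, had 15.9, 12.5 and 14.6 at ZT1, 15.1, 20.3 and 17.7 at ZT5, 21.4, 17.2 and 19.7 at ZT9, 11.9, 14.3 and 15.8 at ZT13, 9.39, 10.3 and 11.3 at ZT17, and 12.5, 14.2 and 15.9 at ZT21. The 3 livers at ZT17 were the 3 lowest of all. The mean was 19.5 ± 2.10 at ZT9 and 10.3 ± 0.933 at ZT17, and the fitted peak-to-trough fold of the value plus 1 was 1.59. The amplitude was 0.34 ± 0.07 with a peak at ZT6.33 (adjusted p = 0.00269).

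Atm (chr9:53439149-53536740, - strand), the kinase activated by double-strand breaks, had 10.9, 6.05 and 9.22 at ZT1, 12.8, 13.4 and 13.97 at ZT5, 11.5, 12.5 and 14.6 at ZT9, 5.53, 7.22 and 7.86 at ZT13, 4.97, 8.87 and 7.95 at ZT17, and 7.55, 13.3 and 9.07 at ZT21. All livers at ZT5 and ZT9 were above all livers at ZT13 and ZT17, and those at ZT21 were spread over the range of both. The amplitude was 0.39 ± 0.11, as large as that of Rad50 but with a wider error, and the peak was at ZT5.24 (adjusted p = 0.0264). The call was lost without ZT5 replicate 2, without ZT5 replicate 3 and without ZT17 replicate 1.

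**Figure D3:**
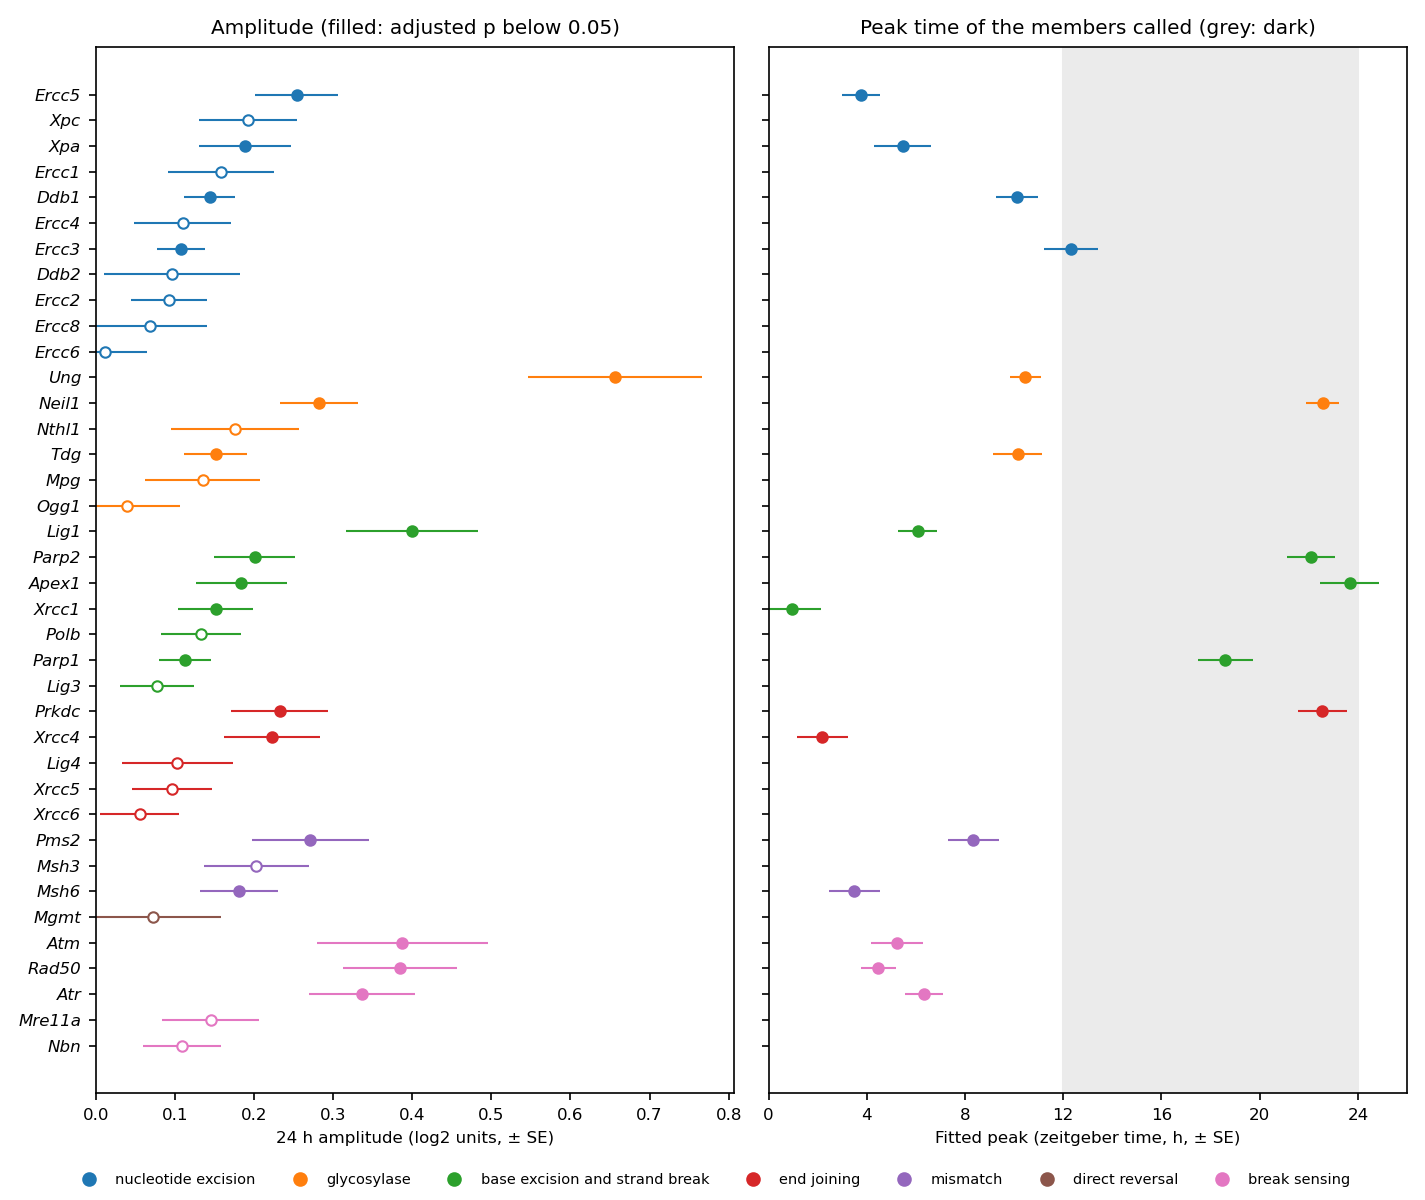
Left, 24 h amplitude (log2 units, bars of 1 SE) of the 38 repair genes, coloured by role, with filled points for the 19 genes called. Right, the fitted peak time in hours after lights on (bars of 1 SE, dark phase in grey) of those 19 genes in the same rows. Ung has an amplitude of 0.66, and 13 of the 19 peaks lie in the light phase.

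In nucleotide excision repair 4 of 11 genes were called (36.4%, against 35.3% of all genes): Ercc5, Ddb1, Ercc3 and Xpa. Ercc5 (chr1:44147744-44181260, + strand) encodes XPG, the nuclease that cuts on the 3′ side of the lesion. Its levels across the day were 16.5, 15.8 and 15.1 at ZT1, 17.7, 18.6 and 16.4 at ZT5, 13.8, 14.8 and 18.5 at ZT9, 13.5, 13.0 and 12.3 at ZT13, 13.6, 9.72 and 10.9 at ZT17, and 15.5, 16.2 and 15.3 at ZT21. The 6 livers at ZT13 and ZT17 were the 6 lowest of the 18. The amplitude was 0.25 ± 0.05 with a peak at ZT3.77 (adjusted p = 0.00357).

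Ddb1 (chr19:10605327-10629819, + strand), a subunit of the complex that recognises ultraviolet lesions and of a ubiquitin ligase, was the most abundant of the 38 by this unit, which is not scaled for transcript length. Per liver it had 174.1, 160.8 and 166.8 at ZT1, 193.1, 197.6 and 191.8 at ZT5, 199.3, 202.4 and 200.8 at ZT9, 206.9, 189.1 and 194.2 at ZT13, 179.2, 188.8 and 179.9 at ZT17, and 152.6, 183.6 and 170.4 at ZT21. The 9 livers at ZT5, ZT9 and ZT13 were all above the other 9, by a narrow margin. Its amplitude was 0.14 ± 0.03 with a peak at ZT10.1 (adjusted p = 0.00659) and SDs within a time point were 1.55 to 15.6. Ddb2, its partner in lesion recognition, was not called (adjusted p = 0.637).

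Xpa (chr4:46155347-46196311, - strand), which verifies the lesion and assembles the cutting complex, had 6.26, 4.32 and 7.72 at ZT1, 8.07, 6.23 and 5.98 at ZT5, 5.92, 6.39 and 6.51 at ZT9, 5.62, 5.44 and 5.60 at ZT13, 4.77, 5.44 and 3.98 at ZT17, and 5.53, 5.51 and 5.41 at ZT21. The livers at ZT5 were above those at ZT17 without overlap, whereas those at ZT1 spanned both. The mean was 6.76 ± 1.14 at ZT5 and 4.73 ± 0.732 at ZT17, a ratio of 1.43. The amplitude was 0.19 ± 0.06 with a peak at ZT5.46 (adjusted p = 0.0435). The call was lost in 12 of these 18 fits, beside a 12 h cosine, with a mean-variance trend (adjusted p = 0.0618) and with voom weights (0.0635), and Xpa passed none of the 3 other rhythm methods.

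Ercc3, the XPB helicase of TFIIH, peaked at ZT12.3 with an amplitude of 0.11 ± 0.03 (adjusted p = 0.0311), and its call was lost without ZT1 replicate 1, ZT9 replicate 1 or ZT21 replicate 1. Xpc, the sensor of distorted DNA, missed the threshold at 0.0569, with means from 15.8 ± 2.24 at ZT17 to 21.4 ± 1.204 at ZT5, and passed with plain totals, with voom weights, with a mean-variance trend and when genes with a mean under 1 were left out. Ercc1 and Ercc4, which form the nuclease on the 5′ side, had adjusted p values of 0.159 and 0.336, and Ercc2, the XPD helicase, had 0.274. Ercc8 and Ercc6, the CSA and CSB proteins of transcription-coupled repair, had 0.73 and 0.983. Ercc6 had the smallest 24 h amplitude of all, at 0.01 ± 0.05.

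In end joining 2 of 5 genes were called (40%, against 35.3% of all genes), Prkdc and Xrcc4. Prkdc (chr16:15637866-15842235, + strand), the catalytic subunit of DNA-PK, had 14.9, 9.59 and 12.8 at ZT1, 8.71, 9.80 and 9.84 at ZT5, 9.83, 7.78 and 11.6 at ZT9, 7.34, 8.04 and 9.51 at ZT13, 10.4, 11.3 and 11.3 at ZT17, and 12.1, 12.2 and 11.4 at ZT21. It was lowest at ZT13, where all 3 livers were below all those at ZT1, ZT17 and ZT21. The amplitude was 0.23 ± 0.06 with a peak at ZT22.5 (adjusted p = 0.0189). Xrcc4 (chr13:89774027-90089608, - strand), the partner of ligase IV, peaked at a different time, near ZT2.19. Its livers had 8.49, 5.94 and 7.59 at ZT1, 7.17, 7.06 and 9.38 at ZT5, 5.88, 6.70 and 6.51 at ZT9, 4.86, 6.90 and 5.18 at ZT13, 4.50, 6.16 and 6.14 at ZT17, and 8.20, 7.36 and 6.67 at ZT21. All livers at ZT5 were above all livers at ZT13 and ZT17. The amplitude was 0.22 ± 0.06 (adjusted p = 0.023), and the call was lost without ZT1 replicate 1, ZT13 replicate 1 or ZT13 replicate 3. Lig4, the ligase itself (0.464), and the Ku subunits Xrcc5 (0.289) and Xrcc6 (0.642) were not called by the same adjusted p.

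Of the 3 mismatch repair genes, Msh6 and Pms2 were called (66.7%, against 35.3% of all genes) and Msh3 was not. Msh6 (chr17:87975062-87990892, + strand), which helps to recognise single mismatches, had 14.4, 12.3 and 17.0 at ZT1, 13.6, 16.3 and 14.2 at ZT5, 14.8, 15.3 and 13.1 at ZT9, 10.6, 11.6 and 12.5 at ZT13, 11.4, 12.9 and 10.4 at ZT17, and 13.5, 12.7 and 15.1 at ZT21. The livers at ZT13 and ZT17 were all below those at ZT5. The amplitude was 0.18 ± 0.05 with a peak at ZT3.49 (adjusted p = 0.0221), lost without ZT5 replicate 2 or ZT17 replicate 3. Pms2 (chr5:143909964-143933968, + strand), an endonuclease of mismatch repair, was among the least abundant genes. It stood at 2.39, 1.78 and 1.67 at ZT1, 2.47, 1.63 and 2.52 at ZT5, 3.45, 2.19 and 3.05 at ZT9, 2.17, 2.50 and 2.04 at ZT13, 1.41, 2.35 and 1.12 at ZT17, and 1.90, 1.03 and 1.92 at ZT21. The livers at ZT9 were above those at ZT21 without overlap. The amplitude was 0.27 ± 0.07 with a peak at ZT8.34 (adjusted p = 0.0235), lost without ZT9 replicate 1, ZT9 replicate 3 or ZT21 replicate 2. Msh3, which recognises small loops, had means from 13.0 ± 2.08 at ZT17 to 17.4 ± 2.24 at ZT5 and an adjusted p of 0.0599, and passed with plain totals and with voom weights. Mgmt, the direct reversal enzyme that takes alkyl groups from guanine, had an amplitude of 0.07 ± 0.09 and an adjusted p of 0.777.

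Time points 12 h apart were compared in 3 contrasts that share no liver (limma, 1 mean per time point, differences on the log2(value + 1) scale). At ZT13 against ZT1, 1 repair gene was higher (2.63% of the 38, against 6.8% of all genes) and 5 were lower (13.2%, against 7.42%). Ung rose by 1.03 ± 0.23 (SE, adjusted p = 0.00828). The difference was -0.57 ± 0.11 (SE, adjusted p = 0.00323) for Neil1, -0.54 ± 0.12 (SE, adjusted p = 0.00767) for Apex1 and -0.50 ± 0.11 (SE, adjusted p = 0.00767) for Rad50. It was -0.52 ± 0.15 (SE, adjusted p = 0.0269) for Prkdc and -0.37 ± 0.11 (SE, adjusted p = 0.0281) for Polb, which had no called 24 h rhythm. The calls of Prkdc and Polb were both lost without ZT1 replicate 1, ZT1 replicate 3 or ZT13 replicate 1, leaving 3 genes lower, and that of Prkdc also without ZT13 replicate 2. Of the 5 genes lower at ZT13, Neil1, Apex1 and Polb belong to base excision repair, and so does Ung, the 1 gene that was higher. By role, 16.7% of the 6 glycosylases and 28.6% of the 7 genes of the later steps were lower, against 7.42% of all genes.

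At ZT17 against ZT5, 0 repair genes were higher in limma (against 9.26% of all genes), also with voom weights, and 1 was higher at an unadjusted p below 0.05. Lower at ZT17 were 5 (13.2%, against 10.5%). The differences were -0.92 ± 0.20 (SE, adjusted p = 0.00439) for Lig1, -0.83 ± 0.22 (SE, adjusted p = 0.0156) for Atm and -0.74 ± 0.11 (SE, adjusted p = 0.000393) for Rad50. They were -0.72 ± 0.14 (SE, adjusted p = 0.00191) for Atr and -0.59 ± 0.12 (SE, adjusted p = 0.00255) for Ercc5. The scaling mattered here. Of all genes called in this contrast 46.9% were higher at ZT17 as deposited and 23.4% with plain library totals, which moved the median of all genes from -0.02 to -0.12, and with plain totals 11 repair genes (28.9%) were lower, against 17.3% of all genes. With voom weights 9 (23.7%) were lower, against 12.1%. Without ZT17 replicate 2, 7 were lower (18.4%, against 7.77%) and Nthl1 was higher.

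At ZT21 against ZT9, 2 repair genes were higher (5.26%, against 5.63%) and 1 was lower (2.63%, against 5.07%). Ung differed by -1.22 ± 0.23 (SE, adjusted p = 0.00335), Neil1 by 0.40 ± 0.11 (SE, adjusted p = 0.0347) and Parp2 by 0.38 ± 0.11 (SE, adjusted p = 0.0363). The calls of Neil1 and Parp2 were both lost with plain totals, with voom weights and with a mean-variance trend. Both were also lost without ZT9 replicate 1, ZT9 replicate 2 or ZT21 replicate 2. Neil1 alone was lost without ZT21 replicate 1, and Parp2 alone without ZT21 replicate 3. Ung stayed lower under each of these. Shares of repair genes called in this contrast were near or below those of all genes.

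**Figure D4:**
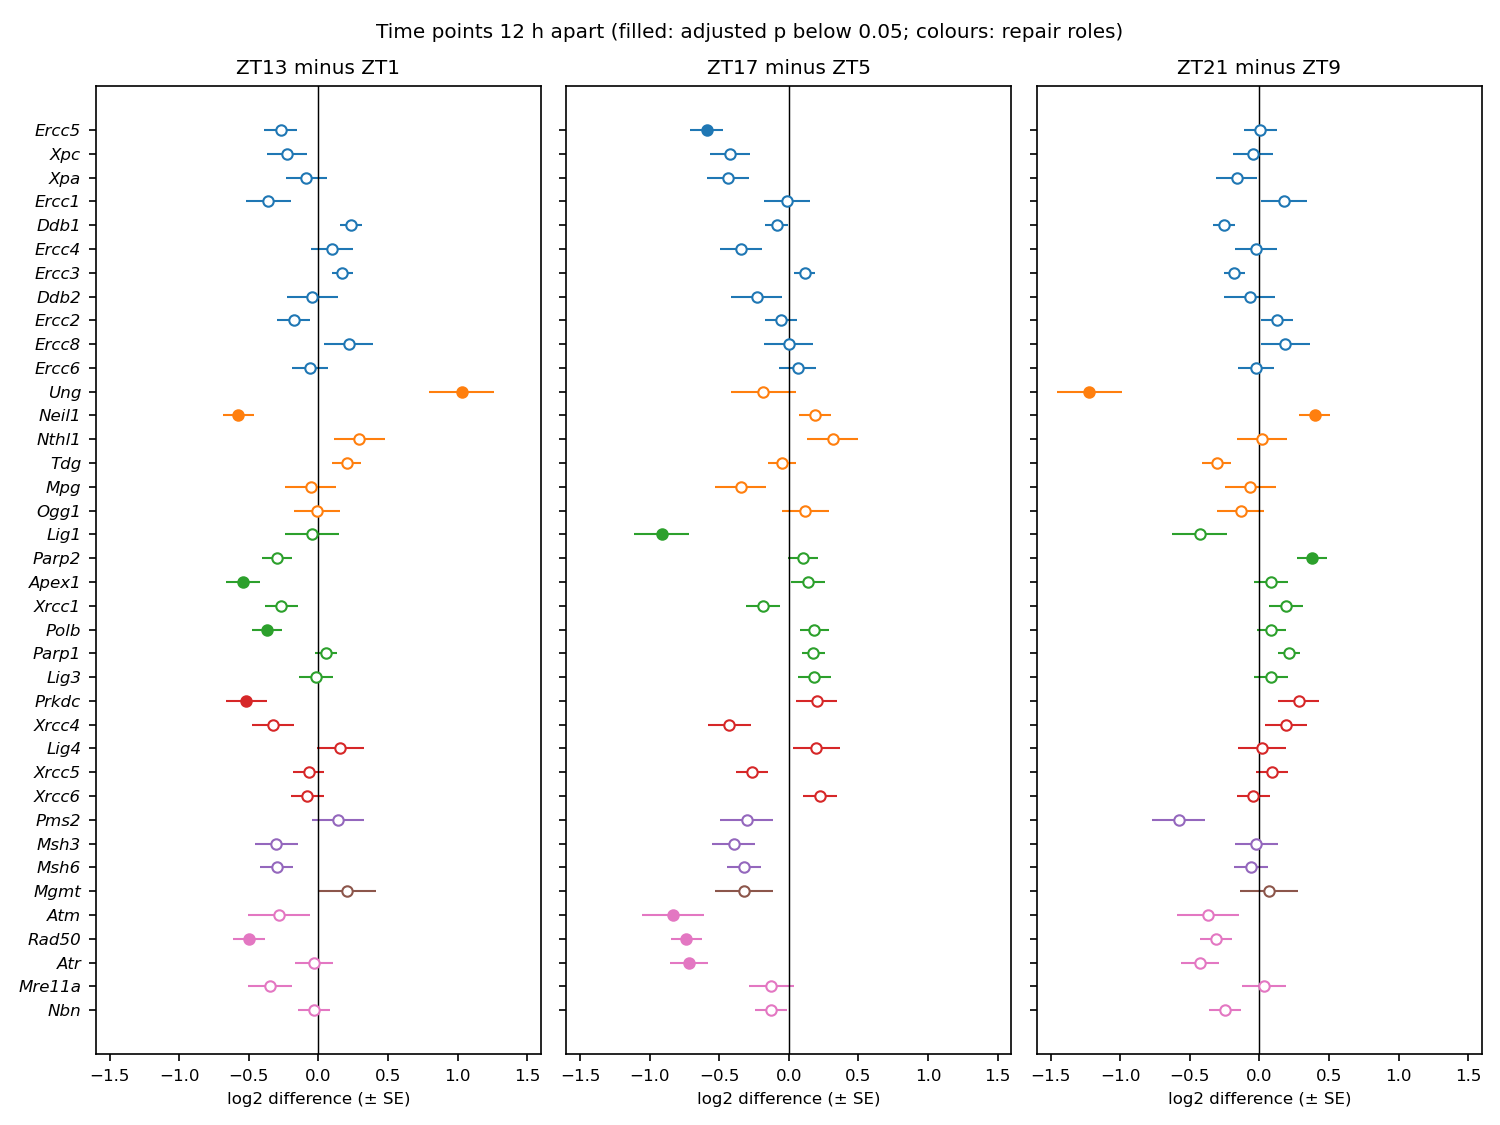
Log2 differences (points, bars of 1 SE) of the 38 repair genes between time points 12 h apart, in 1 panel per contrast, coloured by role, with filled points for genes at adjusted p below 0.05. Ung lies farthest to the right at 1.03 for ZT13 against ZT1 and farthest to the left at -1.22 for ZT21 against ZT9.

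With no assumption on the shape over the day, 9 of the 38 genes differed between the 6 time points (23.7%, against 26.3% of all genes): Ercc5, Ung, Neil1, Apex1, Lig1, Parp2, Atm, Atr and Rad50. A 12 h term beside the 24 h cosine was called for Rad50 alone (2.63% of the 38, against 0.872% of all genes), with an amplitude of 0.25 and an adjusted p of 0.0363, and 6 genes (15.8%, against 12.6% of all genes) had an unadjusted p below 0.05. The mean of Rad50 was 11.7 ± 0.848 at ZT9 and 6.13 ± 0.241 at the next time point, ZT13. The 12 h call was lost in 13 of the 18 fits with a liver removed.

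The pathways hold further genes, of which 58 were listed by textbook role and 57 had a row. Exo1 was not analysed here. Of the 57, 19 were called rhythmic (33.3%, against 35.3% of all genes), 11 with a peak in the light phase and 8 in the dark. Among those with the smallest p, Rad9a, Nhej1, Mlh3, Pms1, H2afx, Rad23b and Trp53bp1 peaked mostly late in the night or soon after lights on. Nhej1, an end-joining factor that works with XRCC4 and ligase IV, had 1.64 ± 0.189 at ZT9 and 4.15 ± 0.400 at ZT21, with an amplitude of 0.52 ± 0.07 and an adjusted p of 0.000101. Rad9a, a subunit of the checkpoint clamp that activates ATR, had 2.29 ± 0.293 at ZT9 and 4.78 ± 0.271 at ZT21 (adjusted p = 6.22e-05). Atr itself was highest at ZT9, the time point at which Rad9a was lowest. Rad9a is 1 of 14 break signalling genes listed, of which 6 were called (42.9%, against 35.3% of all genes). Of these 6, 3 peaked in the light phase and 3 in the dark. Mlh3 and Pms1, which like Pms2 act in mismatch repair, had fitted peaks at ZT20.7 and ZT1.81. H2afx, the histone variant phosphorylated around breaks, was the exception in time and peaked at ZT13.3.

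Markers of other liver cells also moved with the time of day. The summed level of 6 Kupffer cell markers ranged from 101 to 209 at ZT1, from 174 to 236 at ZT5 and from 181 to 223 at ZT9. It ranged from 165 to 218 at ZT13, from 87.7 to 205 at ZT17 and from 88.8 to 138 at ZT21. Timd4, Cd5l and Marco, 3 of these 6, were called rhythmic, with fitted peaks at ZT8.10, ZT8.22 and ZT8.52. For 5 markers of sinusoidal endothelium the sums were 102 to 158 at ZT1, 152 to 190 at ZT5 and 134 to 171 at ZT9. They were 113 to 157 at ZT13, 78.5 to 152 at ZT17 and 81.8 to 128 at ZT21, and Stab2 and Kdr were called. Both sums were high at ZT5 and ZT9, when Rad50, Atr, Atm and Lig1 were high. Of these 4 genes, Rad50 and Atm had their lowest mean at ZT13, and Atr and Lig1 at ZT17. Of 8 markers of dividing cells, Rrm2 and Mcm6 were called, and the sum of the 8 was 20.2 to 26.2 at ZT5, 22.8 to 25.7 at ZT9, 21.4 to 32.2 at ZT13 and 18.7 to 21.2 at ZT17. Rrm2 had an amplitude of 0.72 with a peak at ZT12.8, and Mcm6 one of 0.37 with a peak at ZT5.71. The sum of 6 hepatocyte markers was lowest at ZT9, at 76182 to 81826, below every liver of the other time points. It reached 95767 to 108519 at ZT17. The largest part of this sum was Alb, with a median of 67756, which was not called in limma (adjusted p = 0.0689). Of the 6, 3 were called, and their fitted peaks differed: ZT21.7 for Ttr, ZT18.4 for Serpina1c and ZT11.7 for Cyp2e1. The part of these cells in the levels of the repair genes was not tested. Of the other lists, 1 of 5 stellate cell markers, 2 of 4 cholangiocyte markers, 0 of 2 T and B cell markers, 0 of 2 neutrophil markers and 0 of 3 red blood cell markers were called in limma. At an unadjusted p below 0.05 the last 3 of these lists had 1, 0 and 0 markers. No marker in the table was at the lowest value in all livers.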

How the data were processed

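Per the labels and the study's methods, polyA libraries that do not mark strand were read as 50-nt single reads, trimmed with Cutadapt (version 1.7.1) and aligned to the GRCm38 transcriptome of Ensembl 84, and estimated counts came from RSEM (1.2.20 in the submitters' notes) and were normalized with limma (3.32.2). The deposited signal is the estimated count plus 0.5 per 1000000 reads of a library size that the authors had rescaled; column sums ran from 941088 to 1077230. Only 41.1 to 50.0% of the values gave whole reads (within 0.01), so no count model was used. Depths were 10268168 to 23242842 estimated reads per liver, and rare genes such as Ung rest on few reads. Every one of 18 pairs of livers from the same time point differed beyond sampling noise.

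Levels were analysed as log2(value + 1) in limma 3.58.1 (R 4.3.3), without a filter beyond the removal of 2 genes that had no read in any liver. The tests were a 24 h cosine, a 12 h cosine beside it, the 6 means, and 3 contrasts of times 12 h apart, with Benjamini-Hochberg adjustment over 14449 genes and a threshold of 0.05. Alternatives were pseudocount 0.1 or none, a mean of at least 1, plain totals, median of ratios, a mean-variance trend, voom weights, a threshold of 0.01, each liver left out, the 24 h cosine beside a 12 h cosine, JTK, MC and a non-linear cosine of 20 to 28 h with R-squared of at least 0.7. JTK and MC were written anew, and of the curves the study's rhythm tool offers only the plain cosine was fitted. Values in every liver were given for Xpa, for the 14 genes with the smallest 24 h p among those called and for any gene called for the 12 h term. Of the other repair genes, those with the 8 smallest p were named, except 1 that is not reported here. The members, gene lists and marker lists were chosen with earlier results of these data known. Gene coordinates are from GENCODE M21 on GRCm38, whereas promoter windows and distances to the start are from RefSeq. Scripts were tested on simulated data.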

Additional observations from a re-analysis of the deposited data

How the results depend on the processing

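The 19 repair genes called for a 24 h rhythm became 7 at an adjusted p below 0.01 (18.4%, against 19.8% of all genes), 6 with JTK, 8 with MC and 6 with the non-linear cosine, and 13 to 19 when 1 liver was left out, with 13 without ZT5 replicate 2 and without ZT9 replicate 1 (34.2%, against 31.6% and 33.7% of all genes). The other repair genes went from 19 to 10, 5, 7 and 5 in the same order and to 14 to 21 without 1 liver. At an adjusted p below 0.01 the 12 h term had 0 genes, the 6 time points 4 and ZT21 against ZT9 1. Leaving out 1 liver gave 0 to 1 genes for the 12 h term, 8 to 10 for the 6 time points, 4 to 7 for ZT13 against ZT1, 4 to 8 for ZT17 against ZT5 and 1 to 4 for ZT21 against ZT9, with 1 without ZT9 replicate 1. ZT17 against ZT5 had 11 genes with plain totals and 9 with voom weights, and ZT21 against ZT9 had 5 when genes with a mean under 1 were left out. A stricter threshold lowers a count by construction; for the other changes the cause was not tested. Of 375 values of the 15 named amplitudes, 349 kept their side of the threshold and 26 lost it. No paired analysis was possible because each mouse has a number of its own in the labels, shared by no other time point. Depth limits Ung, Lig1, Pms2 and Nthl1 most.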
